A study of Mus musculus with 576 samples.

Results

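Collagen genes were chosen by symbol alone, as every gene of the count tables whose mouse symbol is Col, a number, the letter a and a number. The rule found 44 of 36658 gene identifiers. They fall into 11 fibrillar, 6 basement membrane, 6 beaded, 9 fibril-associated, 2 multiplexin, 3 network-forming and 4 transmembrane genes, and 3 that belong to none of these classes. All 44 had a count in at least 1 of the cells that passed the filters, and 35 reached 5 CPM (counts of a gene per 1000000 counts, after pooling the cells of each group) in at least 1 of the 7 groups of cells described here.

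The cells were GFP+ cells sorted by flow cytometry out of the dorsal pancreas of E12.5 mouse embryos, each made into its own Smart-seq2 library, a plate-based full-length method without molecular identifiers. They came from 3 transgenic lines, named here the Nkx2.5 line, the Nkx3.2 line and the Prox1 line. Nkx2.5-Cre;mTmG and Nkx3.2-Cre;mTmG embryos carry a Cre driver and the mTmG reporter, in which Cre turns on GFP for good, so that GFP marks cells that have expressed Nkx2.5 or Nkx3.2 and the descendants of such cells, whether or not the driver is still on. Prox1-GFP embryos, Tg(Prox1-EGFP), carry a transgene with GFP under control of Prox1 sequences and no Cre, so that GFP follows present or recent activity of the transgene. Each line was sorted into 2 plates of 96 wells, 576 cells in all, of which 549 passed the filters with 224814 to 1512736 counts per cell. The median depth per cell was 1056674 counts for the Nkx2.5 line, 896115 for the Nkx3.2 line and 808006 for the Prox1 line. Since no embryo or litter is named in the labels, a line counts as 1 sample and its cells are no replicates, so states and lines could not be tested against each other. Intervals are exact 95% Poisson limits for levels and exact binomial limits for shares of cells, and they cover counting error only. A gene was counted as higher in a group where its CPM was at least 2 times that of the other group, reached 5 CPM, and lay in the same direction in every pair of plates with at least 5 cells on both sides.

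Collagens are triple-helical proteins of the extracellular matrix, each built from 3 alpha chains that are the same or differ. Fibrillar collagens form the banded fibrils of connective tissue and cartilage, basement membrane collagens form the sheet under epithelia and around vessels, beaded collagen forms microfibrils around cells, and fibril-associated collagens sit on the surface of fibrils. In the embryonic pancreas, mesenchyme surrounds a branching epithelium that rests on a basement membrane and gives rise to endocrine cells, and mesothelium covers the outside of the organ.

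Clusters were drawn with the collagen genes held out of the variable genes, and states were named from marker lists that hold no collagen. Of the 549 cells, 545 had a state, with 413 mesenchymal, 27 mesothelial, 88 epithelial and 17 endocrine cells, and 4 cells whose own markers went against their cluster were left out. Mesenchymal cells came from all 3 lines, with 87 and 81 cells on the 2 plates of the Nkx2.5 line, 92 and 76 on those of the Nkx3.2 line and 33 and 44 on those of the Prox1 line, 77 in all. Mesothelial cells came from the Nkx2.5 line, 5 cells, and the Nkx3.2 line, 22 cells. All epithelial and endocrine cells came from the Prox1 line. The GFP sort sets which states a line can hold. The states were checked on their markers. All 11 epithelial markers reached 5 CPM in epithelial cells and all 14 endocrine markers in endocrine cells, as did 6 and 7 of 8 mesothelial markers in the mesothelial cells of the Nkx2.5 and Nkx3.2 lines and 8 or 9 of 10 mesenchymal markers in mesenchymal cells. The 10 mesenchymal markers summed to 133.5 CPM in epithelial cells and 34.4 CPM in endocrine cells, against 1763 to 2096 CPM in mesenchymal cells. Epithelial cells formed clusters 4 (55 cells, with Vtn and Ptf1a among its leading genes) and 7 (33 cells). The 10 leading genes of cluster 7 held 1 endocrine marker, Neurog3, and no marker of the epithelial list, although its mean epithelial marker score, 6.60 on a log2 scale, was close to the 7.68 of cluster 4 and its endocrine score was 0.62. Comparisons with epithelial cells as a whole are therefore given beside the counts against each of these 2 clusters.

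Windows before the start of transcription were taken for the collagen genes from RefSeq on GRCm38.p6. Of 44 genes, 35 had an entry, with 38 windows because 3 genes had 2 starts. Col1a1, Col2a1, Col4a3, Col5a2, Col9a3, Col12a1, Col14a1, Col22a1 and Col26a1 had no entry. The 150 bases before the start are shown for 4 genes that lay far apart in the data, Col3a1 and Col6a3, higher in mesenchyme, and Col9a1 and Col11a2, higher in epithelium. They are written 5' to 3' on the strand of the gene, and capitals mark a TATAAA match or a CCGCCC match.
Col3a1, GRCm38.p6 chr1:45311388-45311537, plus strand: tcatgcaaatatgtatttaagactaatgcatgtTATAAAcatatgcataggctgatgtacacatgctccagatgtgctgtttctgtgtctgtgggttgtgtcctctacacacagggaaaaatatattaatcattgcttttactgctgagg
Col6a3, GRCm38.p6 chr1:90843972-90844121, minus strand: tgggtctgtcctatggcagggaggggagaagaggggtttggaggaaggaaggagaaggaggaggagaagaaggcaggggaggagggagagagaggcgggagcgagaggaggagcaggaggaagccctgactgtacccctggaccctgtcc
Col9a1, GRCm38.p6 chr1:24177460-24177609, plus strand, the first of 2 starts: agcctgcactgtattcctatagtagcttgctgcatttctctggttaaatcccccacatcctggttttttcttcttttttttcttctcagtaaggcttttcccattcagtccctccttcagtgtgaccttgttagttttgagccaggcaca
Col11a2, GRCm38.p6 chr17:34038988-34039137, plus strand: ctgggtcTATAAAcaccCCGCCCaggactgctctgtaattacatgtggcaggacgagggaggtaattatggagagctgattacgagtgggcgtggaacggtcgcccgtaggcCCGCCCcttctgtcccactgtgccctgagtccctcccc
Each motif was looked for on both strands of the 250 bases before every start. GGGCGG, the GC box, which reads CCGCCC on the other strand, was present in 22 of the 38 collagen windows (57.9%) and in 32.7% of all 32851 windows. TATAAA was present in 5 of 38 (13.2%) and in 12.4% of all, CCAAT in 13 of 38 (34.2%) and in 33.8% of all, and ACAAAG, a core bound by SOX proteins, in 4 of 38 (10.53%) and in 16.5% of all. None of the 4 motifs was found in the windows of Col6a3 and the first start of Col9a1, while that of Col11a2 held 1 TATAAA and 2 CCGCCC matches. These matches describe the letters of the windows only.

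Collagen genes took about 10 times the share of counts in mesenchyme that they took in epithelium. They held 0.516% of counts in mesenchymal cells of the Nkx2.5 line, 0.551% in those of the Nkx3.2 line and 0.502% in those of the Prox1 line. In mesothelial cells the share was 0.4998% in the Nkx2.5 line and 0.306% in the Nkx3.2 line. Epithelial cells had 0.0508% and endocrine cells 0.0431%. The 2 plates of the Prox1 line differed, at 0.613% and 0.426% in mesenchymal cells and 0.0629% and 0.0370% in epithelial cells, yet the lowest mesenchymal plate stayed far above the highest epithelial one. The number of collagen genes with a count per cell had medians of 11.5 to 15 in mesenchymal cells, 12 and 11.5 in mesothelial cells of the Nkx2.5 and Nkx3.2 lines, 6 in epithelial cells and 7 in endocrine cells.

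The classes had a different balance in each state. Fibrillar genes summed to 4223, 4569 and 4138 CPM in mesenchymal cells of the Nkx2.5, the Nkx3.2 and the Prox1 line, which was 81.8 to 82.9% of their collagen counts. In epithelial cells the fibrillar sum was 170.8 CPM, 33.7% of collagen counts, and in endocrine cells it was 127.1 CPM, 29.5%. The basement membrane class was far more even across states, at 133.04, 148.9 and 133.6 CPM in mesenchymal cells and 86.7 CPM in epithelial cells. It was at 312 and 118.2 CPM in mesothelial cells of the Nkx2.5 and Nkx3.2 lines. In endocrine cells it was at 154.3 CPM, the largest class with 35.8% of collagen counts. Fibril-associated genes summed to 120.6, 209.4 and 282.7 CPM in mesenchymal cells and 330.5 and 88.8 CPM in mesothelial cells. They had 98.1 CPM in epithelial cells, 19.3% of collagen counts, and 66.3 CPM in endocrine cells. The multiplexin class, here almost all Col18a1, summed to 132.2 CPM in epithelial cells, 26.1% of their collagen counts, and to 224 and 299 CPM in mesothelial cells of the Nkx2.5 and Nkx3.2 lines, against 12.1 to 28.5 CPM in mesenchymal cells. Beaded collagen was at 387, 308 and 220 CPM in mesenchymal cells, 3.43 CPM in epithelial cells and 18.6 CPM in endocrine cells.

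**Figure D1:**
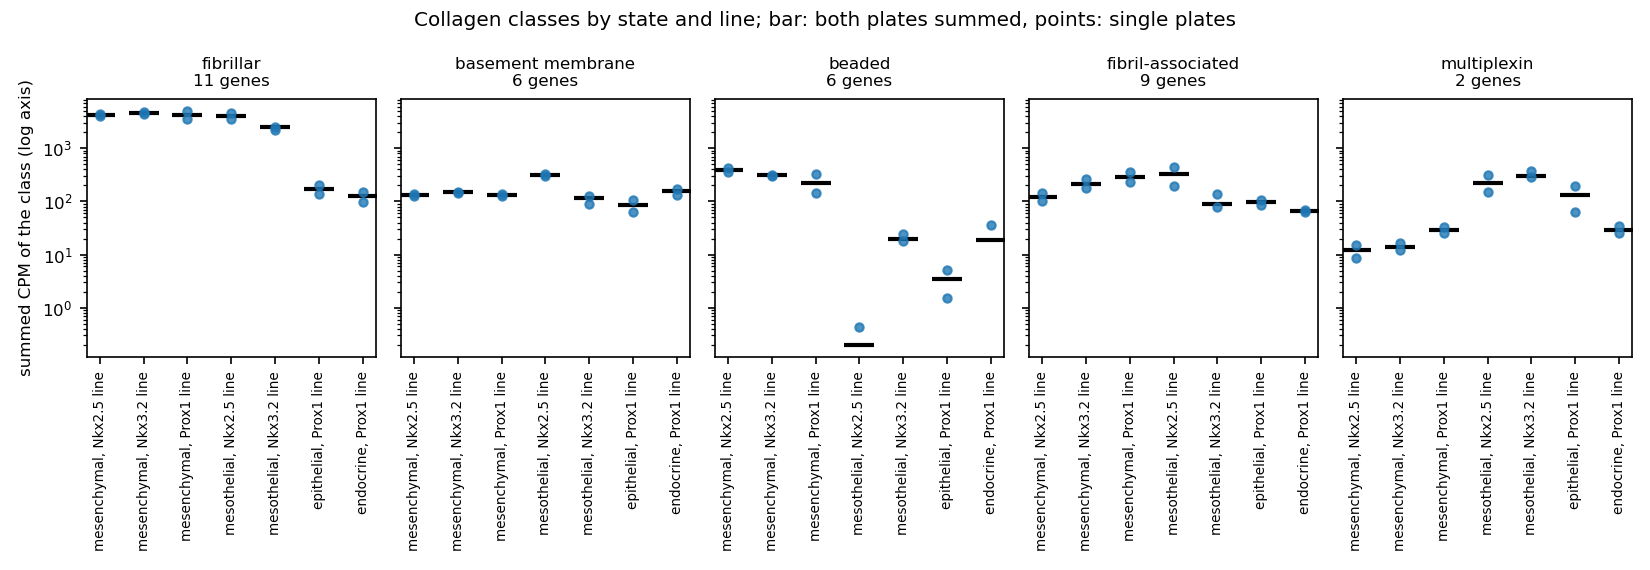
Summed level of each collagen class (CPM, log axis, so that plates at 0 are not drawn) in the 7 groups of state and line, with a bar for both plates together and a point for each plate. The fibrillar panel drops from 4138 CPM in mesenchymal to 170.8 CPM in epithelial cells of the Prox1 line, while the bars of the basement membrane panel stay between 86.7 and 312 CPM.

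In the Prox1 line both states were sorted on the same plates, so that mesenchymal and epithelial cells could be compared within plates. Of the 30 collagen genes that reached 5 CPM in either state, 21 were higher in mesenchymal cells, where the rule took 14.3% of all 12116 genes tested. Another 6 were higher in epithelial cells, where it took 15.7% of all genes. The median log2 ratio of mesenchymal over epithelial was 4.84 over the 30 collagen genes and -0.00068 over all genes tested. Against cluster 4 alone 22 collagen genes of 30 were higher in mesenchyme and 4 lower (16.8% and 14.6% of all genes), and against cluster 7 alone 20 of 31 were higher and 7 lower (15% and 16.6%), or 6 lower without the cell of the highest count.

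**Figure D2:**
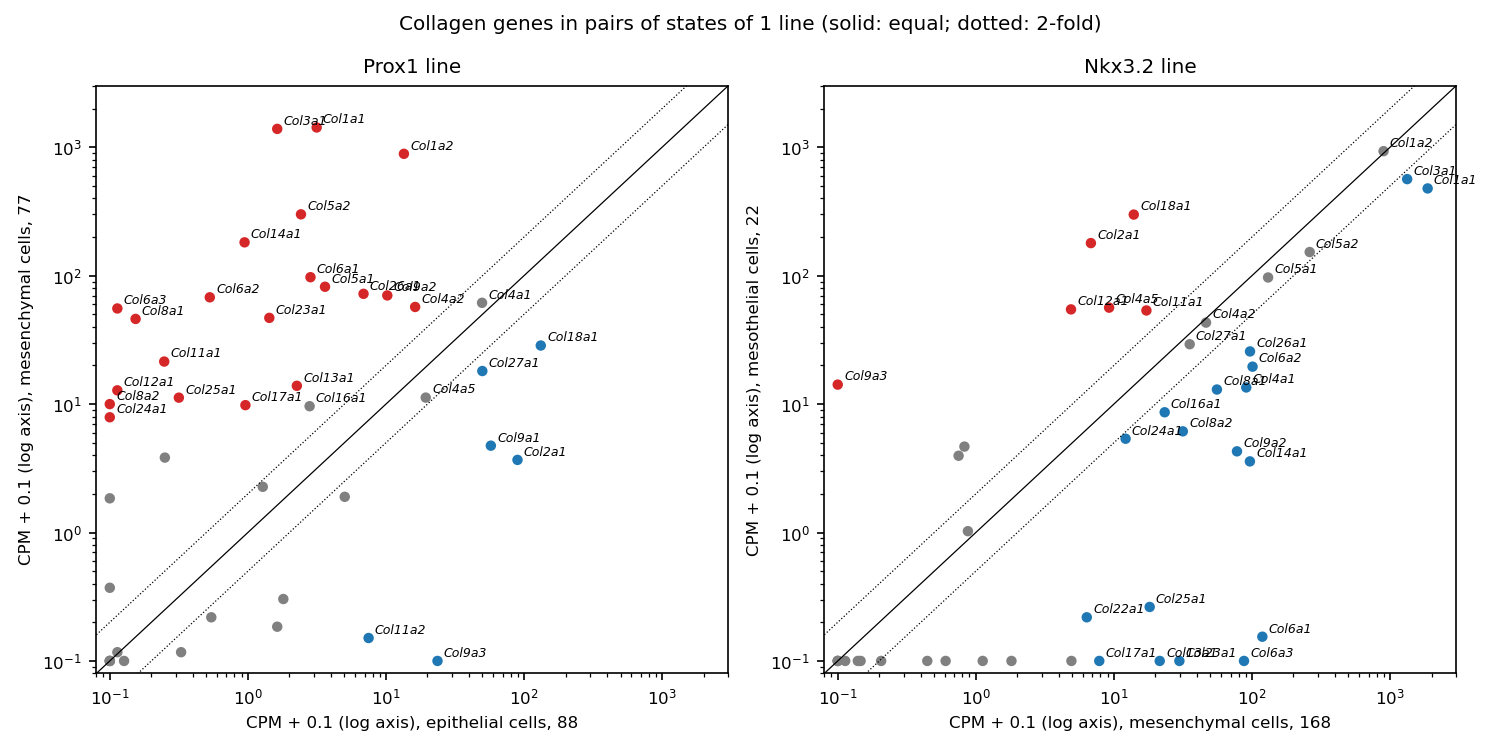
Level of each collagen gene in a pair of states of the same line, in CPM with 0.1 added on log axes, for mesenchymal (77 cells) against epithelial cells (88 cells) of the Prox1 line on the left and mesothelial (22 cells) against mesenchymal cells of the Nkx3.2 line on the right. Red and blue points are genes higher or lower on the vertical axis by the 2-fold rule, grey points are the others, the solid line marks equal levels and the dotted lines 2-fold. The left panel has 21 red and 6 blue points, and the right panel has 6 red and 18 blue points.

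The chains of type I and type III collagen, the bulk of the fibrils of connective tissue, were the highest collagen transcripts of mesenchyme. Col1a1 (ENSMUSG00000001506, chromosome 11, 94936224 to 94953042) had a count in every mesenchymal cell, with cell medians of 1080.0, 1740 and 1297 CPM in the Nkx2.5, the Nkx3.2 and the Prox1 line and highest cells of 4344, 4158 and 4817 CPM. Summed over cells it was at 1201 CPM (95% interval 1196 to 1206), 1873 CPM (1866 to 1880) and 1426 CPM (1416 to 1436). In epithelial cells Col1a1 was at 3.05 CPM (2.67 to 3.47), 467 times lower than in mesenchymal cells of the same line, and 62.6% of that came from 1 cell. A count of Col1a1 was found in 32 of 88 epithelial cells (36.4%), a share that dropped to 14.8% once each cell was thinned to 100000 counts. Of all epithelial cells 2.27% had 5 counts or more. Whether the low counts are background or low expression was not tested. Col3a1 (ENSMUSG00000026043, chromosome 1, 45311538 to 45349706) was at 1399, 1331 and 1390.3 CPM in mesenchymal cells and at 1.53 CPM in epithelial cells, where 2 of 88 cells had a count. The levels of Col1a1 and Col3a1 in epithelial cells did not overlap with those of mesenchymal plates.

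Per kilobase of exon, the order in mesenchyme was Col1a1, Col3a1 and Col1a2 in all 3 lines, at 183.01, 142.5 and 91.5 CPM per kilobase in the Nkx2.5 line and 285, 135.6 and 72.3 CPM per kilobase in the Nkx3.2 line. When the longest transcript was used in place of all exons, this order held only in the Nkx3.2 line. In the Nkx2.5 line the ratio of Col3a1 over Col1a1 was then 1.24 in place of 0.779. Col1a1 also fell behind Col1a2 there, at 202.5 against 212.7 CPM per kilobase. In the Prox1 line Col3a1 came before Col1a1, at 249.9 against 240.5 CPM per kilobase. Per kilobase of all exons, the first 3 in epithelial cells were Col18a1 at 18.8, Col9a1 at 11.3 and Col2a1 at 9.70 CPM per kilobase, with Col1a2 at 1.08. With the longest transcript Col2a1 came before Col9a1 there, at 17.6 against 14.98 CPM per kilobase.

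**Figure D3:**
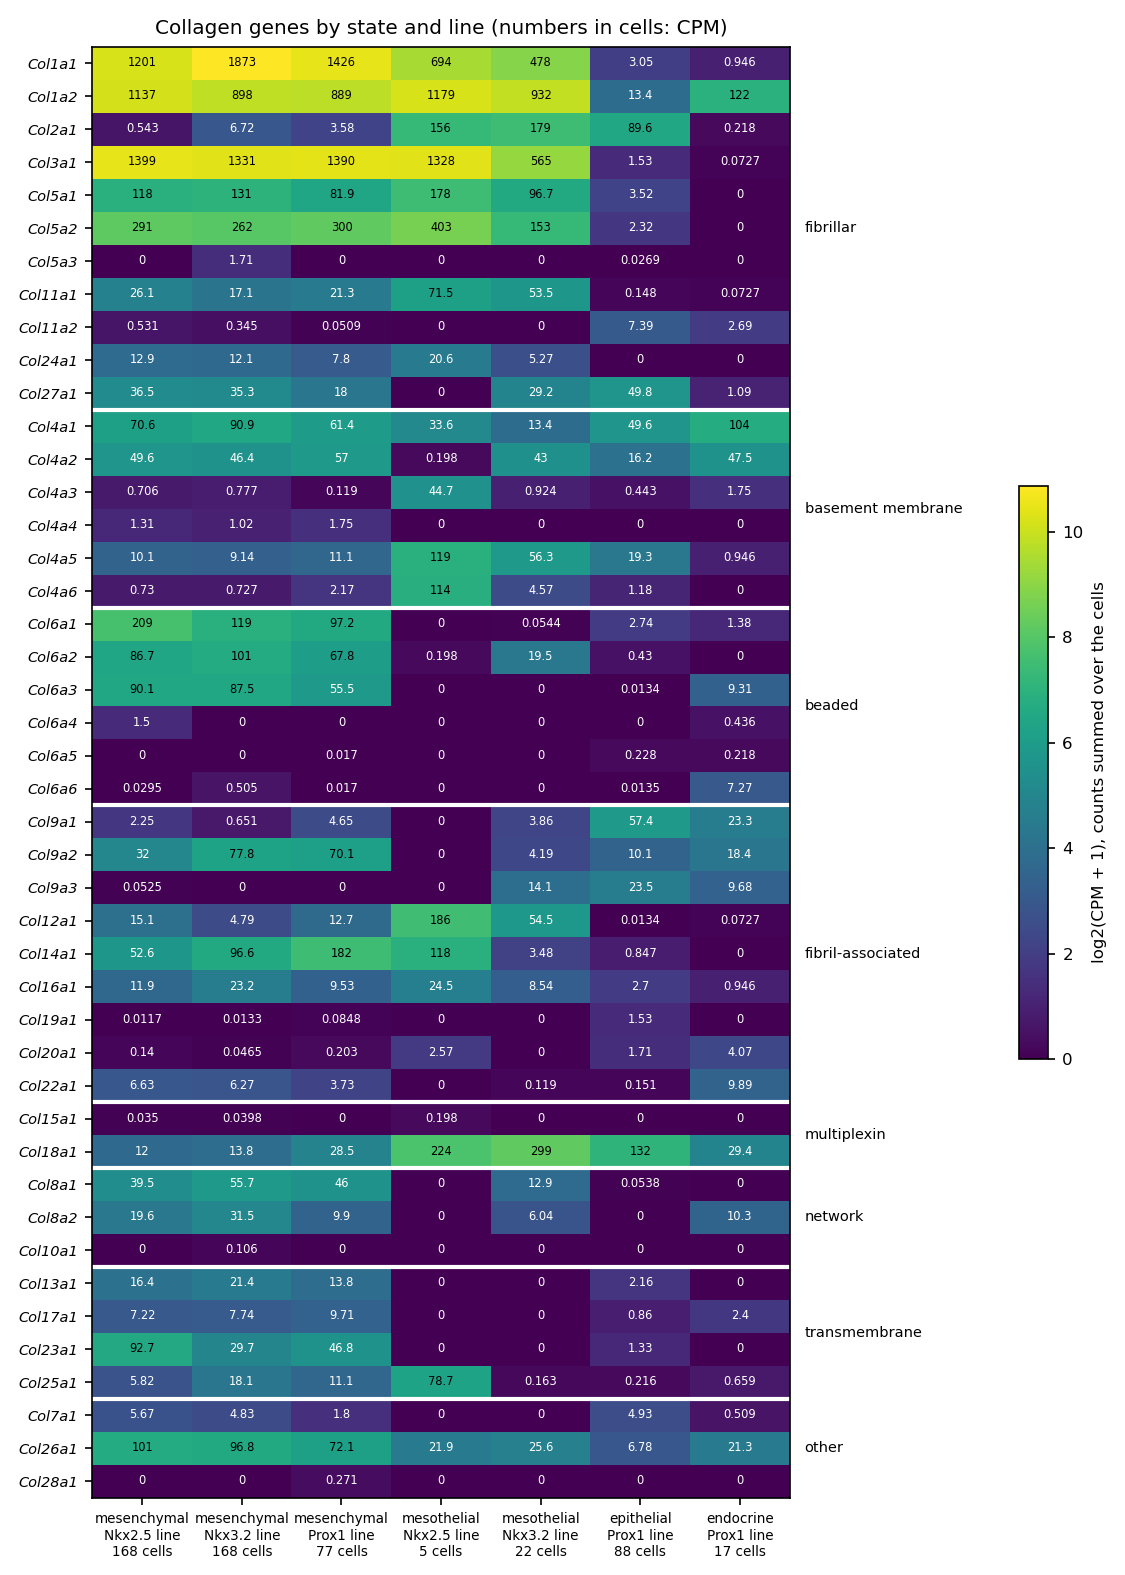
Level of the collagen genes in the 7 groups of state and line, ordered by class, as log2(CPM + 1) of counts summed over the cells (colour), with the CPM printed in each field. Col1a1, Col1a2 and Col3a1 are bright in the 5 mesenchymal and mesothelial columns and Col2a1 and Col18a1 in the mesothelial and epithelial columns, while Col4a1 is seen in mesenchymal, epithelial and endocrine columns.

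Type V and type XI chains join the fibrils of types I and II and are known to set fibril width. Col5a1 and Col5a2, the chains of type V, were at 81.9 and 300.3 CPM in mesenchymal cells of the Prox1 line, beside 3.52 and 2.32 CPM in epithelial cells. Col11a1 followed them, at 21.3 and 0.148 CPM, and Col24a1 had 7.80 CPM in mesenchymal cells and no count in epithelial cells, at least 193.5 times less. Col11a2, the partner of Col11a1 in type XI, went the other way, with 0.0509 CPM in mesenchymal and 7.39 CPM (6.79 to 8.04) in epithelial cells, where 19 of 88 cells had a count. Col27a1 was also higher in epithelial cells, at 49.8 CPM with a count in 68 of 88 cells, against 17.99 CPM with a count in 25 of 77 mesenchymal cells. Col5a3 stayed under 5 CPM in all groups.

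The main fibrillar chain of cartilage, Col2a1 (ENSMUSG00000022483, chromosome 15, 97975602 to 98004695), was high in epithelial and mesothelial cells and near absent in most mesenchymal cells. It was at 89.6 CPM (87.5 to 91.8) in epithelial cells, with a count in 45 of 88 cells, a median cell of 2.64 CPM and a highest cell of 951 CPM. After thinning, 48.9% of epithelial cells kept a count. Mesenchymal cells had 0.543, 6.72 and 3.58 CPM in the Nkx2.5, the Nkx3.2 and the Prox1 line, with a count in 4, 18 and 3 cells (2.38%, 10.7% and 3.90% of cells). The 2 plates of epithelial cells had 118.4 and 56.9 CPM, both above all 6 mesenchymal plates, the highest of which was at 7.43 CPM. In endocrine cells 1 of 17 had a count, at 0.218 CPM in all.

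Fibril-associated type IX collagen sits on type II fibrils in cartilage, and its 3 chains did not share 1 pattern. Col9a1 (ENSMUSG00000026147, chromosome 1, 24177610 to 24252684) was at 57.4 CPM (55.7 to 59.2) in epithelial cells, with 62.3 and 51.9 CPM on the 2 plates and a count in 40 of 88 cells, against 4.65 CPM in mesenchymal cells of the same line. Col9a3 was at 23.5 CPM in epithelial cells and had no count in mesenchymal cells of the Prox1 and Nkx3.2 lines, where 3 counts would be 0.0509 and 0.0199 CPM. Col9a2 was instead higher in mesenchymal cells, at 70.1 CPM against 10.1 CPM in epithelial cells. In epithelial cells Col2a1 and Col9a1 were found together in 29 cells, which was 64.4% of the cells with Col2a1 and 72.5% of those with Col9a1, and Col9a1 and Col9a3 in 17 cells, 42.5% and 73.9%.

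Of the other fibril-associated genes, Col14a1 and Col12a1 were higher in mesenchymal than in epithelial cells of the Prox1 line. Col14a1, which coats fibrils of type I, was at 181.7 CPM in mesenchymal cells of the Prox1 line and 0.847 CPM in epithelial cells. Col12a1, its relative, was at 12.7 and 0.0134 CPM, and Col16a1 at 9.53 and 2.70 CPM did not pass the rule. Mesothelial cells had more Col12a1 than these mesenchymal cells, as given below. Col22a1 reached 5 CPM in neither of these 2 states, but was higher in endocrine than in epithelial cells. Col19a1 and Col20a1 stayed under 5 CPM in all groups.

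Within epithelium, the collagens of epithelial cells were mostly those of cluster 7, a comparison chosen after the values had been seen. Of 16 collagen genes tested 10 were higher in cluster 7 than in cluster 4, against 11.2% of all 11683 genes, and 2 were lower, against 6.82%. Their share of counts was 0.0943% in cluster 7 and 0.0285% in cluster 4. The level of Col2a1 was 209.9 CPM in cluster 7 against 28.1 CPM in cluster 4, with a count in 27 of 33 and 18 of 55 cells. Col9a1 was at 139.98 and 15.2 CPM, Col18a1 at 259 and 67.5 CPM, and Col11a2 at 18.7 and 1.62 CPM. Col9a3, Col9a2 and Col27a1 were also higher, by 7.71, 8.81 and 2.46 times. Col4a5, Col16a1 and Col13a1 passed only with the cell of the highest count, so 7 were left without it. Col1a2 was lower, at 0.0794 CPM with a count in 2 of 33 cells against 20.2 CPM with a count in 16 of 55 cells, as was Col26a1, at 2.05 against 9.20 CPM. Both clusters lay above mesenchymal cells in Col2a1, Col9a1, Col9a3 and Col18a1, whereas Col11a2, Col27a1 and Col4a5 passed for cluster 7 and not for cluster 4.

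**Figure D4:**
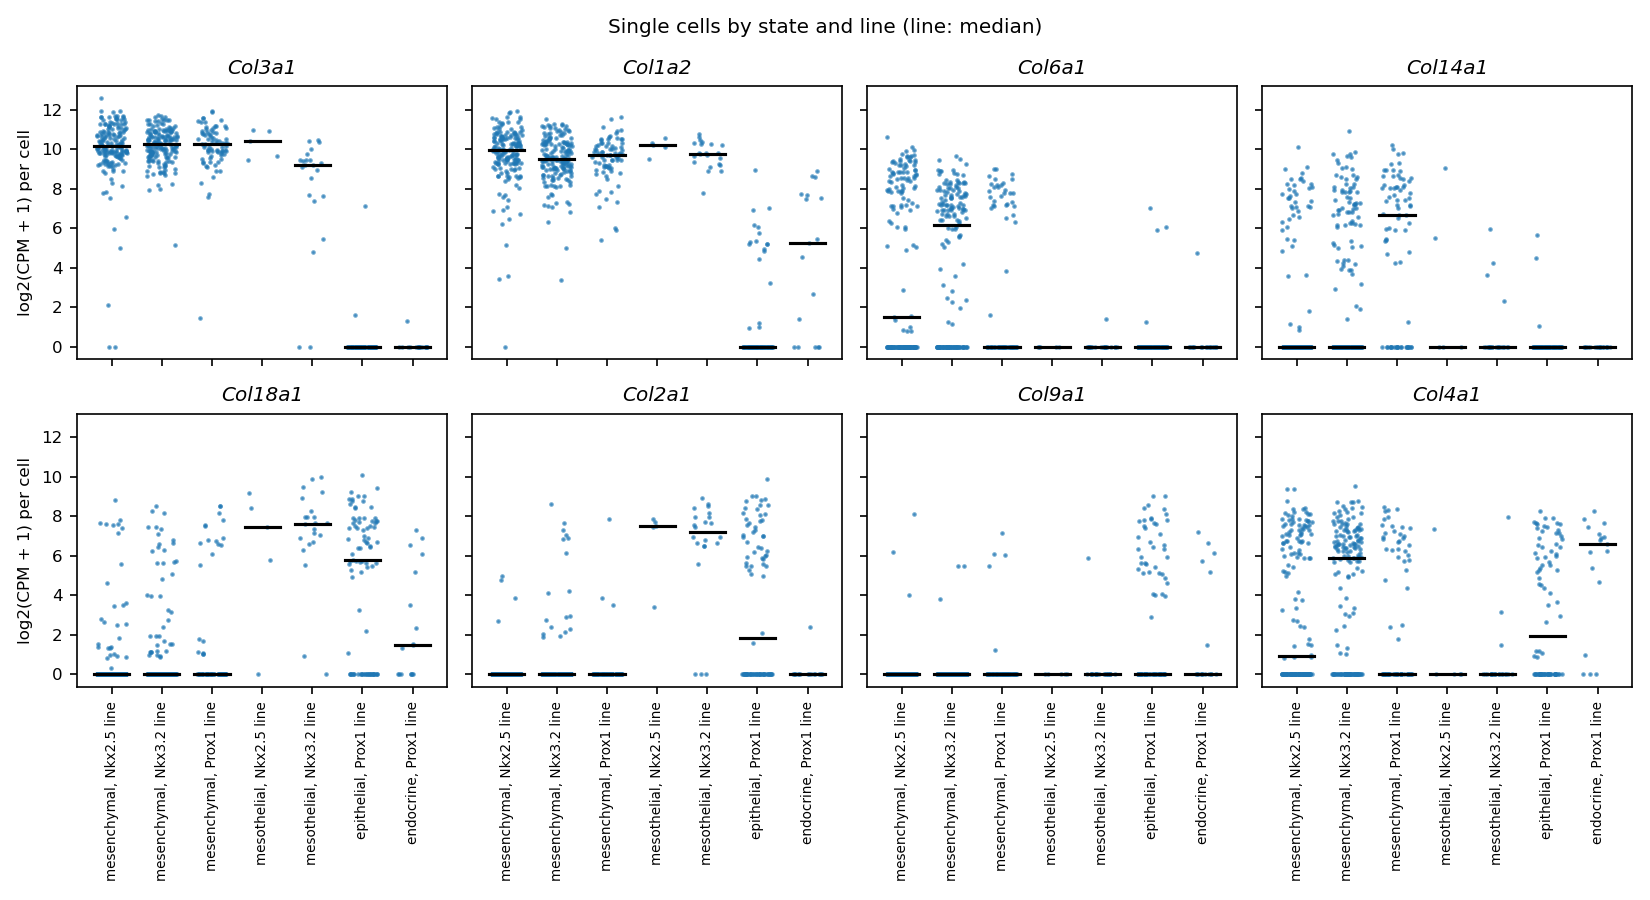
Level of 8 collagen genes in single cells as log2(CPM + 1), by state and line, with a point per cell and a line at the median. Col3a1 separates mesenchymal from epithelial cells nearly cell by cell (77 of 77 against 2 of 88 cells with a count), while Col2a1, Col9a1 and Col18a1 are spread widely among epithelial cells, from no count to highest cells of 951, 527 and 1078 CPM.

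Type IV collagen, the scaffold of basement membranes, was the most evenly shared class by its sum, while its chains differed between states. In the 5 mesothelial cells of the Nkx2.5 line Col4a5 and Col4a6 were at 17.7 and 14.3 CPM per kilobase, against 4.50 and 0.0299 for Col4a1 and Col4a2. In endocrine cells Col4a5 had a count in 1 of 17 cells and Col4a6 in 0. Its main chains Col4a1 and Col4a2 lie side by side on chromosome 8 in opposite directions (11198423 to 11312826 and 11312805 to 11449287), with ends that overlap. Col4a1 was at 61.4 CPM (59.4 to 63.4) in mesenchymal cells of the Prox1 line and 49.6 CPM (48.001 to 51.2) in epithelial cells, a ratio that did not reach 2. Col4a2 passed, at 56.98 CPM in mesenchymal and 16.2 CPM in epithelial cells. The 2 chains were found together in 16 epithelial cells, of 49 with Col4a1 and 32 with Col4a2. Of the minor chains, Col4a5 was at 11.1 CPM in mesenchymal and 19.3 CPM in epithelial cells, which did not pass, and Col4a6, its neighbour on the X chromosome, at 2.17 and 1.183 CPM. Col4a3 had a count in 40.5% of mesenchymal cells of the Nkx2.5 line but summed to 0.706 CPM, and the share fell to 4.2% after thinning. Col4a4 had a count in 6 cells in all.

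Col18a1 (ENSMUSG00000001435, chromosome 10, 77052178 to 77166548), a basement membrane collagen whose end fragment is known as endostatin, had its highest levels in mesothelial and epithelial cells. Mesothelial cells had 224 CPM (211 to 237) in the Nkx2.5 line, with a count in 4 of 5 cells, and 299 CPM (291 to 307) in the Nkx3.2 line, with a count in 21 of 22 cells. Epithelial cells had 132.2 CPM (129.6 to 134.9), with 194 and 62.1 CPM on the 2 plates and a count in 59 of 88 cells. Mesenchymal cells had 12.02, 13.8 and 28.5 CPM in the Nkx2.5, the Nkx3.2 and the Prox1 line, and no mesenchymal plate reached the lowest epithelial one. Col15a1, the other multiplexin, had a count in 3 cells in all.

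Beaded type VI collagen was highest in mesenchymal cells. Its chains Col6a1, Col6a2 and Col6a3 were at 97.2, 67.8 and 55.5 CPM in mesenchymal cells of the Prox1 line, beside 2.74, 0.430 and 0.0134 CPM in epithelial cells. Counts were found in 4, 1 and 1 of 88 epithelial cells. In mesenchymal cells of the Nkx2.5 line Col6a1 had a count in 90 cells and Col6a2 in 70 cells, with both in 49 cells. Col6a4 and Col6a5 stayed under 5 CPM in all groups, and Col6a6 reached 7.27 CPM in endocrine cells through 2 cells. Col6a3 had a count in 4 of 17 endocrine cells and Col6a1 in 1 of 17. The beaded class summed to 18.6 CPM in endocrine cells, with 0 CPM on the first plate and 36.5 CPM on the second.

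Network-forming type VIII collagen, known from vessel walls and the eye, was higher in mesenchymal than in epithelial cells in both its chains. Col8a1 was at 45.95 CPM and Col8a2 at 9.90 CPM in mesenchymal cells of the Prox1 line, beside 0.0538 CPM and no count in epithelial cells. In endocrine cells the class summed to 10.3 CPM, with a count of Col8a2 in 29.4% of cells. All 4 transmembrane collagens were higher in mesenchymal cells than in epithelial cells, with Col23a1 at 46.8 and 1.33 CPM, Col13a1 at 13.8 and 2.16 CPM, Col25a1 at 11.1 and 0.216 CPM, and Col17a1, the hemidesmosome collagen of skin, at 9.71 and 0.860 CPM. Col13a1 and Col17a1 had a count in 15.6% and 10.4% of these mesenchymal cells, and Col13a1 did not pass against cluster 7 alone. Col26a1, which belongs to no class, was at 72.1 CPM in mesenchymal and 6.78 CPM in epithelial cells. The remaining members, Col7a1, Col10a1 and Col28a1, were at most 5.67 CPM in all groups.

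Endocrine cells, all from the Prox1 line and 17 in number, had the main basement membrane chains. The collagen genes higher in epithelial than in mesenchymal cells were lower in endocrine cells than in epithelial cells as a whole. Col9a1, Col18a1 and Col9a3 were still among the 10 highest collagen genes of endocrine cells per kilobase. Of 16 collagen genes tested against epithelial cells, 4 were higher in endocrine cells, against 18.3% of all 12420 genes tested, and 7 were lower, against 24.3%. The median log2 ratio of all genes tested was itself at -0.10. A count of 4 in 16 is close to the share of all genes, and it became 7 without the first plate. Of the 7 lower genes, Col2a1, at 0.218 CPM against 89.6 CPM, showed the largest ratio, followed by Col27a1 at 1.09 against 49.8 CPM and Col4a5 at 0.946 against 19.3 CPM. Col18a1 was at 29.4 CPM (26.6 to 32.4), 4.50 times lower than in epithelial cells, and Col9a1, Col9a3 and Col11a2 were 2.47, 2.43 and 2.75 times lower. Against cluster 4 alone 5 genes were higher and 4 lower (20.7% and 23.9% of all genes), and against cluster 7 alone 3 were higher and 9 lower (16.7% and 23.3%). Col18a1, Col2a1, Col4a5 and Col27a1 were lower against both clusters, while Col9a1, Col9a3 and Col11a2 were lower only against cluster 7.

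Of the genes higher in endocrine cells, Col1a2 (ENSMUSG00000029661, chromosome 6, 4504814 to 4541544) stood apart from its partner Col1a1. It was at 121.99 CPM (116.2 to 127.97), with 92.5 and 150.2 CPM on the 2 plates, a count in 12 of 17 cells, a median cell of 36.7 CPM and a highest cell of 478 CPM. Without the highest cell it was at 100.2 CPM. Epithelial cells had 13.4 CPM and a count in 18 of 88 cells, and the plates of the 2 states did not overlap. Col1a1 was at 0.946 CPM in the same endocrine cells, no cell had more than 3.84 CPM, and Col3a1 was at 0.0727 CPM. In mesenchymal cells of the Prox1 line, Col1a2 was at 889 CPM beside 1426 CPM of Col1a1. Col1a2 remained higher in endocrine cells against cluster 4, at 20.2 CPM, and against cluster 7, at 0.0794 CPM. The mesenchymal markers as a list summed to 34.4 CPM in endocrine cells, less than the 133.5 CPM in epithelial cells.

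Col4a1 was at 104.1 CPM (98.8 to 109.6) in endocrine cells with a count in 14 of 17 cells, 2.10 times its level in epithelial cells, which became 1.69 times without the highest cell. Col4a2 was at 47.5 CPM with a count in 9 of 17 cells, of which 8 also had Col4a1. Per kilobase of all exons, Col4a1 and Col1a2 were the first 2 collagen transcripts of endocrine cells, at 13.9 and 9.82 CPM per kilobase. With the longest transcript Col1a2 came before Col4a1, at 22.8 against 15.7 CPM per kilobase. Col8a2, at 10.3 CPM in 5 cells, and Col22a1, at 9.89 CPM in 6 cells, were also higher than in epithelial cells, at no count and 0.151 CPM.

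Mesothelial cells shared type I and III collagen with mesenchyme and Col18a1 and Col2a1 with epithelium. In the Nkx3.2 line 29 collagen genes were tested against mesenchymal cells, with both plates pooled, while the direction could be checked on 1 plate only (19 mesothelial cells, beside 3 on the other plate). Of these, 6 were higher in mesothelial cells, against 13.7% of all 11912 genes tested, and 18 were lower, against 13.9%. Col18a1 was 21.6 times higher, at 299 against 13.8 CPM. Col2a1 was 26.7 times higher, at 179.3 CPM (173.2 to 185.5) with a count in 19 of 22 cells, and 18 of these cells had both. Col12a1, a fibril-associated collagen of dense connective tissue, was at 54.5 against 4.79 CPM, Col4a5 at 56.3 against 9.14 CPM and Col11a1 at 53.5 against 17.1 CPM. Col9a3 was at 14.1 CPM, all of it from 4 cells, against no count.

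The same genes were measured in the 5 mesothelial cells of the Nkx2.5 line, where no plate had enough cells for the rule. Col18a1 was 18.6 times, Col12a1 12.3 times, Col4a5 11.8 times and Col11a1 2.74 times its level in mesenchymal cells of that line, and Col2a1 was at 155.8 CPM with a count in 5 of 5 cells against 0.543 CPM. Col9a3 had no count in these 5 cells. Col4a6 was at 114.3 CPM in 4 of these 5 cells, 67% of it from 1 cell, and at 4.57 CPM in the Nkx3.2 line.

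Genes of the beaded and transmembrane classes were among those lower in mesothelial cells. Col6a1 was at 0.0544 CPM in the Nkx3.2 line with a count in 1 of 22 cells, against 118.9 CPM, and it had no count in the 5 cells of the Nkx2.5 line. Col6a3 had no count in either line and Col6a2 was at 19.5 and 0.198 CPM. Transmembrane Col13a1, Col17a1 and Col23a1 had no count in any of the 27 mesothelial cells. Fibrillar Col1a1 and Col3a1 were lower in the Nkx3.2 line, at 478 and 565 CPM against 1873 and 1331 CPM, and Col1a2 did not pass, at 932 against 898 CPM. Col4a1 was lower in the Nkx3.2 line, at 13.4 against 90.9 CPM, nearly all of it from 1 of 22 cells, while Col4a2 did not pass, at 43.01 against 46.4 CPM. The other genes that were lower in that line, Col8a1, Col8a2, Col9a2, Col14a1, Col16a1, Col22a1, Col24a1, Col25a1 and Col26a1, differed by 2.29 to 110.8 times. In the Nkx2.5 line Col3a1 was at 1328 CPM in mesothelial and 1399 CPM in mesenchymal cells. Epithelial markers summed to 186.4 and 323 CPM in mesothelial cells of the Nkx2.5 and Nkx3.2 lines, above the 27.5 to 53.5 CPM of mesenchymal cells, with Cldn6, Esrp1, Pdx1, Ptf1a, Cdh1 and Cpa1 at 0 in both lines, and their part in these values was not tested.

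Mesenchymal cells of the Nkx2.5 line and of the Prox1 line were each compared with those of the Nkx3.2 line. Of 29 genes tested between the Nkx2.5 and Nkx3.2 lines, 2 were higher in the Nkx2.5 line (4.59% of all 11361 genes tested) and 3 lower (6.35%). With the first plate of the Nkx3.2 line left out, 4 were higher and 5 lower, and 5 were lower with either plate of the Nkx2.5 line left out. Col23a1 was at 92.7 against 29.7 CPM and Col12a1 at 15.1 against 4.79 CPM. Col9a2 was lower in the Nkx2.5 line, at 31.95 against 77.8 CPM, as was Col25a1, at 5.82 against 18.1 CPM. Col2a1 passed at 0.543 against 6.72 CPM but not without 1 cell. The lines were sorted on separate plates, so line and plate cannot be told apart, and cells of cluster 2 came mostly from the Nkx2.5 line (63 of 76). In the clusters with at least 5 cells of both lines Col23a1 was, in the Nkx2.5 and the Nkx3.2 line, at 88.03 against 41.7 CPM in cluster 0, 93.99 against 30.4 CPM in cluster 1, 117.6 against 39.2 CPM in cluster 2, 28.6 against 20.3 CPM in cluster 3, which is under 2-fold, and 78.5 against 35.6 CPM in cluster 5.

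Between the Prox1 and Nkx3.2 lines 28 genes were tested, of which 1 was higher in the Prox1 line (4.45% of all 11432 genes) and 1 lower (5.6%), neither above the share of all genes. These counts moved with each plate left out: 0 higher and 5 lower without the first and 3 and 3 without the second plate of the Nkx3.2 line, and 7 lower without the first and 3 higher and 3 lower without the second plate of the Prox1 line. Col18a1 was at 28.5 against 13.8 CPM, and at 1.70 times without its highest cell. Col8a2 was at 9.90 against 31.5 CPM. The lines differed in their mix of clusters. Cluster 8, the highest mesenchymal cluster in Col18a1, held 19 cells of the Prox1 line and 7 of the Nkx3.2 line. Cluster 3, the highest in Col8a2, held 1 cell of the Prox1 line and 40 of the Nkx3.2 line. The part of this mix in the 2 differences was not tested. Library numbers set the Prox1 line apart from both Cre lines, so that a batch of libraries and a line cannot be told apart here. Both comparisons share the cells of the Nkx3.2 line.

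Among the 7 mesenchymal clusters the share of counts in collagen genes ran from 0.452% in cluster 3 to 0.720% in cluster 6, a ratio of 1.59. Cluster 6 (41 cells, 34 from the Nkx3.2 line), led by the contractile genes Acta2, Tagln and Actg2, had the highest Col1a1, Col1a2 and Col3a1, at 2115, 1477 and 1760.4 CPM. It also had the highest Col8a1, at 108.1 CPM against 20.9 to 54.7 CPM elsewhere, and the highest Col4a1 and Col4a2, at 111.9 and 88.4 CPM. Cluster 3 (60 cells), led by Robo2, Frzb, Kazald1 and Nkx2-5, had the lowest Col6a1 and Col6a2, at 47.3 and 29.997 CPM, and the highest Col13a1 and Col8a2, at 48.6 and 43.2 CPM. Cluster 2 (76 cells) had the highest Col6a1 and Col23a1, at 293 and 105.8 CPM.

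Cluster 8 (26 cells, 19 from the Prox1 line and 7 from the Nkx3.2 line), led by Stmn2, Ecel1 and Cxcl13, had the lowest Col4a1 and Col4a2 and the highest Col18a1 of the mesenchymal clusters. Col4a1 was at 9.32 CPM and Col4a2 at 8.65 CPM, against 70.4 to 111.9 and 37.9 to 88.4 CPM in the other mesenchymal clusters. The minor chains Col4a5 and Col4a6 went the other way, at 39.6 and 12.9 CPM, against at most 20.9 and 1.51 CPM in the others. Col18a1 was at 71.1 CPM, with 94.9 CPM in cells of the Nkx3.2 line and 62.6 CPM in cells of the Prox1 line, against 4.78 to 22.3 CPM elsewhere. Col5a2 was at 453 CPM and Col12a1 at 38.9 CPM, both the highest of the mesenchymal clusters. Col2a1 was at 158.4 CPM in the 7 cells of the Nkx3.2 line, of which 5 had a count, and had no count in the 19 cells of the Prox1 line.

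**Figure D5:**
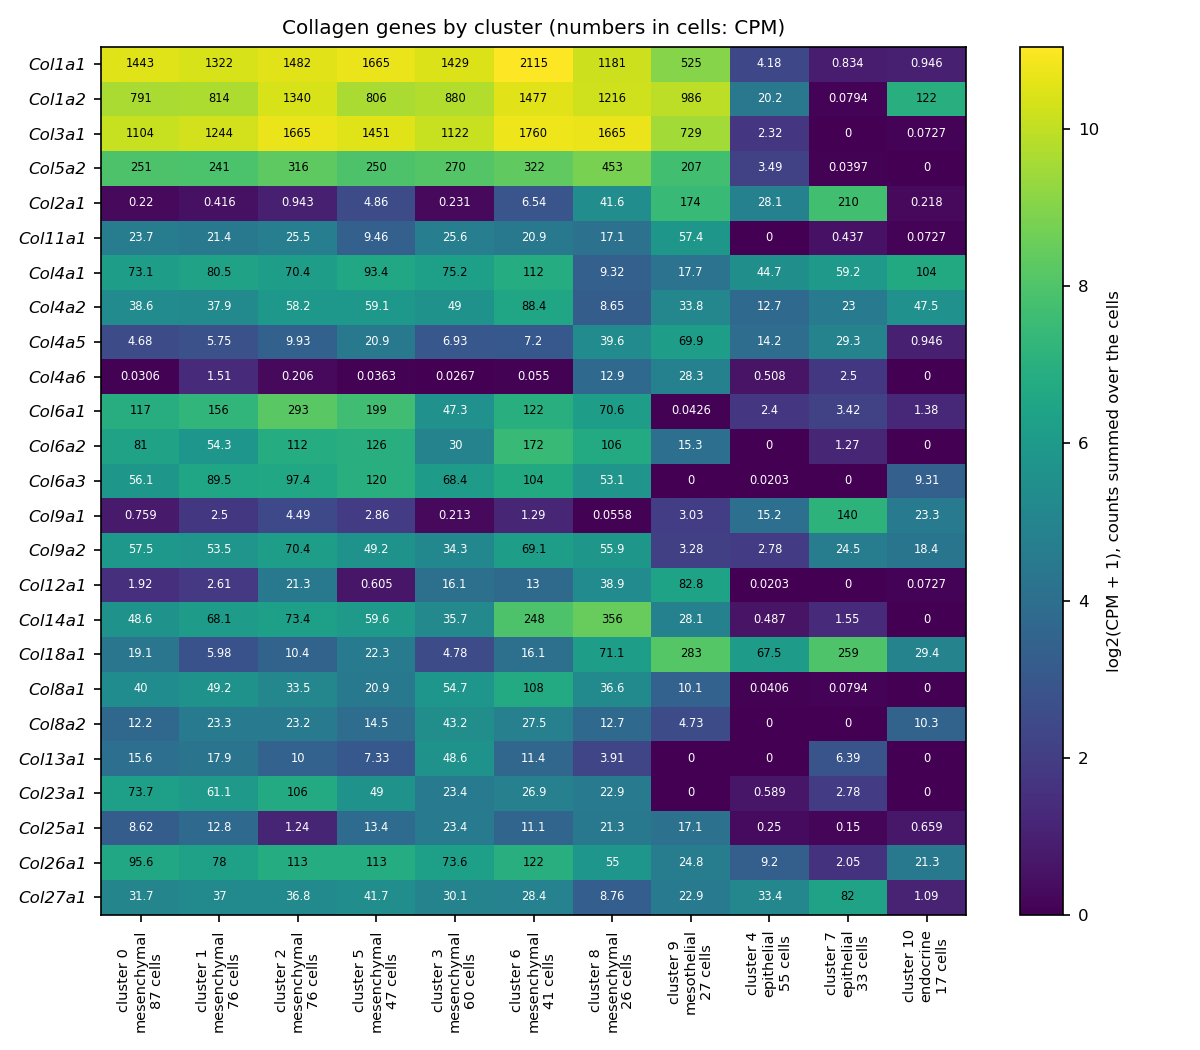
Level of 25 collagen genes in the clusters of cells as log2(CPM + 1) of counts summed over the cells (colour), with the CPM printed in each field, the state and the number of cells under each column. Cluster 8 is dark in Col4a1 and Col4a2 (9.32 and 8.65 CPM) where the other mesenchymal clusters are not, and cluster 7 is brighter than cluster 4 in Col2a1, Col9a1 and Col18a1.

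The enzymes and chaperones that make collagen were counted in a list of 20 genes, of which 19 were tested in the Prox1 line, with 9 higher in mesenchymal than in epithelial cells and none lower, where the rule took 14.3% and 15.7% of all genes. They were P4ha2 and Plod1, P3h1, P3h3 and Crtap, which hydroxylate prolines and lysines or help to do so, Fkbp10, Fkbp14 and Serpinh1, which assist folding, and Sparc, which binds collagen outside the cell. Serpinh1, the collagen chaperone HSP47, was at 903 CPM against 274 CPM, and Sparc at 732 against 247 CPM. Of 13 genes of processing and cross-linking 8 were tested and 7 were higher in mesenchyme, among them Adamts2, which removes the procollagen N-propeptide, at 93.9 against 2.16 CPM, the lysyl oxidase Lox at 14.9 CPM against no count and Loxl1 at 206 against 6.02 CPM. Pcolce2 was lower. Of 7 receptor genes 4 were tested, and Itga11 and Ddr2, the latter at 74.02 against 0.368 CPM, were higher in mesenchyme. Against cluster 7 alone, Sparc, Bmp1 and Loxl3 did not pass as higher, and Pcolce2 did not pass as lower. There P4ha1 and P3h2 also passed as higher in mesenchyme, and Plod2 and Ddr1 passed as lower. Against cluster 4 alone Crtap did not pass as higher.

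In endocrine cells 7 of 19 tested genes of collagen making were higher than in epithelial cells and 4 were lower (18.3% and 24.3% of all genes), with 7 and 4 against cluster 4 alone and 5 and 5 against cluster 7 alone. P4ha2, Plod1, Plod3, P3h3 and Colgalt2 were higher and P4ha3, Serpinh1, Fkbp10 and Sparc lower against each cluster. Serpinh1 was at 57.03 against 274 CPM, Fkbp10 at 1.67 against 34.01 CPM and Sparc at 3.201 against 247 CPM. Of the receptors, Itga1 was at 23.3 against 0.269 CPM and passed against both clusters, and Ddr1, at 162.003 against 63.04 CPM, did not pass against cluster 7 alone. In mesothelial cells of the Nkx3.2 line 2 of 19 tested genes of collagen making were higher than in mesenchymal cells and 1 was lower (13.7% and 13.9% of all genes). Of 8 tested genes of processing and cross-linking 1 was higher and 5 were lower. P4ha3, a prolyl hydroxylase subunit, was at 166.002 CPM against 19.3 CPM in mesenchymal cells. Adamts2 and Lox were lower, at 7.19 against 145.2 CPM and 1.14 against 21.8 CPM. Between the Nkx2.5 and Nkx3.2 lines, P3h3 was the only 1 of 19 tested genes of collagen making to pass (4.59% of all genes), at 68.4 against 30.1 CPM. Itga1, a collagen receptor subunit, was lower in mesenchymal cells of the Nkx2.5 and Prox1 lines (3.49 and 3.13 CPM) than in those of the Nkx3.2 line (15.98 CPM). It was the only 1 of 5 tested receptor genes to pass in either comparison. Itga1 was among the 10 leading genes of cluster 6, which held 34 cells of the Nkx3.2 line, 2 of the Nkx2.5 line and 5 of the Prox1 line. The part of this mix was not tested, line and plate cannot be told apart, and both comparisons share the Nkx3.2 cells.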

How the data were processed

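Smart-seq2 libraries of single GFP+ cells were analysed from the deposited tables, which hold an estimated count per gene and cell. The authors trimmed reads (Trim Galore 0.6.5, per the submitters' processing notes), quantified transcripts with kallisto on GRCm38 and summed them to genes with tximport, without normalization, and the annotation release is not given in the sources used here. Of the values above 0, 36.1% are not whole, and counts include PCR copies. Symbols and positions came from GENCODE M21 (GRCm38), which named 35945 of 36658 identifiers, and identifiers without a symbol held 0.589% of counts. Reads shared by overlapping genes were assigned by kallisto and may be split between them. No column was left without a sample.

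The filters of the methods, at least 1000 genes, 100000 counts and at most 30% of counts from 13 mitochondrial genes, left out 27 of 576 cells. Clusters were drawn with Seurat 5.3.0 in R 4.3.3 (2000 variable genes less the 13 collagen and laminin genes among them, 20 components, resolution 1.9, cell cycle difference regressed out). No doublet caller was run. A cell took the state of its cluster unless its own highest marker score was of another state, and 6 cells lay within 0.5 of the next state. Levels are CPM of counts summed over cells (Python 3.11.15, numpy 2.4.6, pandas 2.3.3, scipy 1.17.1, matplotlib 3.10.9). A group at 0 was set to 3 counts to give a bound on a ratio. The rule for differences was run on simulated counts with Poisson noise alone. Within a group these had no plate effects and no differences between cells but depth, so they do not give the rule's error rate here. Named genes were those past the rule in a comparison, the 10 highest in each state and their chain partners.

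The collagen genes, classes and lists were chosen with earlier results of these data known. The comparisons by epithelial cluster and the alternative without the cell of the highest count were added after the data had been seen.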

Additional observations from a re-analysis of the deposited data

Results flagged for a closer look

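The 3 collagen genes below moved in opposite directions between mesothelial and mesenchymal cells in the 2 Cre lines, a difference that was not tested and that rests on 5 mesothelial cells in the Nkx2.5 line. Col14a1 in mesothelial cells was 0.0360 times its mesenchymal level in the Nkx3.2 line and 2.24 times in the Nkx2.5 line, where 92% of it came from 1 cell and the ratio was 0.236 without that cell. Col25a1 was at 0.00903 times in the Nkx3.2 line and 13.5 times in the Nkx2.5 line, where 1 cell of 5 held nearly all of it and the ratio without that cell was 0.102. Col16a1 was at 0.367 times in the Nkx3.2 line and 2.07 times in the Nkx2.5 line.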

How the results depend on the processing

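Under the alternatives set at the start 20 values moved, 1 moved under those added after seeing the data, and all others stayed within their spread or within 1.5 times of the reported count. By the longest transcript the order of Col3a1 and Col1a1 per kilobase turned in the Nkx2.5 and Prox1 lines. In the Nkx2.5 line the ratio of Col3a1 over Col1a1 was 1.24 in place of 0.779. Without a minimum CPM, 17 collagen genes in place of 7 were lower in endocrine than in epithelial cells, and between the Prox1 and Nkx3.2 lines 5 in place of 1 were higher and 4 in place of 1 lower. By the mean of each cell's CPM 3 were lower in the Prox1 line. Without the cell of the highest count, an alternative added after seeing the data, none was higher there. Leaving out 1 plate at a time gave 6 to 7 genes higher in endocrine cells, with fewer pairs of plates to match and changed pooled levels. It also gave 2 to 4 higher and 3 to 5 lower in the Nkx2.5 line and, for the Prox1 line, 0 to 3 higher and 3 to 7 lower than in the Nkx3.2 line. The collagen share of mesothelial cells of the Nkx3.2 line was 0.286 to 0.311% without a plate. Thinned to 100000 counts, the median share of mesenchymal cells of the Nkx2.5 line with a count, over the members, was 9.23% in place of 16.96%, and 10.1% had 5 counts or more. No paired analysis was possible because replicate numbers only follow accession order and no result came from a test, while directions were compared within plates where both states shared them. Mesothelial values of the Nkx2.5 line rest on 5 cells and endocrine values on 17.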
